A study of Homo sapiens with 2 samples.

Results

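The genes described here are 35 genes known to respond to the hypoxia-inducible factors (HIF) that lie outside glycolysis and angiogenesis, among them DDIT4, NDRG1, PLIN2, the stanniocalcins, AXL and BNIP3. They were compared between 786-VHL, a line derived from 786-O that holds a functional VHL gene, and 786-O itself, a human renal cell carcinoma line with a mutated VHL. The members were taken as a list of symbols, and 33 of the 35 matched probe sets annotated to that gene alone, older names included. NDUFA4L2 is listed under its current symbol COXFA4L2. PTHLH and SLC16A3 matched no such probe set and were not analysed here. Total RNA of each line was hybridised to 1 Affymetrix expression array, so no difference has a replicate check and no test was possible. How the VHL gene was introduced, whether 786-VHL is 1 clone, and at what oxygen level the cells grew are not stated in the labels.

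HIF is a pair of proteins, an alpha subunit and ARNT, that binds DNA at hypoxia response elements and switches on genes for life at low oxygen. In normal oxygen, prolyl hydroxylases mark the alpha subunit and the VHL protein, part of a ubiquitin ligase, delivers it for destruction, so that cells without VHL keep HIF at normal oxygen. 786-O cells are known for carrying HIF-2 alpha, the product of EPAS1, and no HIF-1 alpha. Outside sugar metabolism and vessel growth, the targets act in growth brakes, the circadian clock, chromatin, hormone and receptor signalling, lipid storage, mitochondrial turnover and collagen maturation. The comparison asked which of them differed between the line with a functional VHL and 786-O.

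HIF binds a short core inside the response element, written here as ACGTG or GCGTG on either strand, and 6 promoters are shown so that the letters can be set beside the values that follow. DDIT4 was the furthest apart of all members and BHLHE40 was higher in 786-VHL, PLIN2 and BNIP3 were close on both arrays, and STC2 and TMEM45A were lower in 786-VHL. The 6 were chosen after their values were seen. Each is the 250 bases before the transcription start, from RefSeq on GRCh38.p14, written 5′ to 3′ along the gene, with cores in capitals. They lie at chr10:72273674-72273923 (plus strand) for DDIT4, chr3:4979187-4979436 (plus) for BHLHE40, chr9:19127493-19127742 (minus) for PLIN2, chr10:131981924-131982173 (minus) for BNIP3, chr5:173328415-173328664 (minus) for STC2 and chr3:100492369-100492618 (plus) for TMEM45A.
DDIT4: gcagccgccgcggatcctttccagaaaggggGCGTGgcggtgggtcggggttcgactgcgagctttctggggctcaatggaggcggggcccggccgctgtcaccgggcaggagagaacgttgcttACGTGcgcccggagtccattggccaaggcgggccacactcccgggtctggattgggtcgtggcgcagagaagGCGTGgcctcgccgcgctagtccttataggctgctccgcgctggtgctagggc
BHLHE40: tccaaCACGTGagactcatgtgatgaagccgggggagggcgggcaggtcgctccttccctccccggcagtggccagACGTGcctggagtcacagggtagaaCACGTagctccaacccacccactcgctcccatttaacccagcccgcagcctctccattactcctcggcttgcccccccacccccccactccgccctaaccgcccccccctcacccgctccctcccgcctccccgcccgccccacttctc
PLIN2: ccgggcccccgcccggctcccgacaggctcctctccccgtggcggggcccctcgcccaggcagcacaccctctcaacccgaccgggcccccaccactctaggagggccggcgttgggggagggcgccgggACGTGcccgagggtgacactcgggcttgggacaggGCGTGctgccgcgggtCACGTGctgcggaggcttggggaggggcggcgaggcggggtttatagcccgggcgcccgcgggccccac
BNIP3: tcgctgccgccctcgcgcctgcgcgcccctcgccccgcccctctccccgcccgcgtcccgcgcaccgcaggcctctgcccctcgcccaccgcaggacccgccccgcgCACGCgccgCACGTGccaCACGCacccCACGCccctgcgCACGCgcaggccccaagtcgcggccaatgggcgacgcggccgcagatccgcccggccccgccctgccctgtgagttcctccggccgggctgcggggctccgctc
STC2: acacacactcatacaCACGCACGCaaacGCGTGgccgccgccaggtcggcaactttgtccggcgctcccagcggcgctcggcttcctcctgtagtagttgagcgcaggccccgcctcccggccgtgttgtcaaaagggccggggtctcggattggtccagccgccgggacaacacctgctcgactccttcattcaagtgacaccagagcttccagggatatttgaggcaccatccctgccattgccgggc
TMEM45A: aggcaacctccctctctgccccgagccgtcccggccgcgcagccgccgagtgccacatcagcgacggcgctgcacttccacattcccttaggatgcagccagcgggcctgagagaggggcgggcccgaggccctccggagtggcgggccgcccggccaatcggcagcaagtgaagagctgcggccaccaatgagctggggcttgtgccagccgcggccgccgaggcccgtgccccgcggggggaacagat

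DDIT4 held 3 matches, at 219, 125 and 53 bases before the start. BHLHE40 held 4 and PLIN2 4, and BNIP3 held 6, gathered between 143 and 104 bases before the start. STC2 held 3, all of them GCGTG, and TMEM45A held 0. The letters CACGTG read as ACGTG on both strands and count as 2 matches.

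Values are intensities in arbitrary units, and differences are log2(786-VHL + 16) minus log2(786-O + 16), so a positive difference is higher on the array labelled 786-VHL. Folds are on the same scale, which understates differences of dim genes. A gene was represented by its brightest probe set and counted as measured when the higher of its 2 values exceeded a floor of 22.3, the median of all values. By this rule 32 members were measured of 13291 measured genes. RORA, a nuclear receptor of the clock, was the exception, with all 8 of its probe sets below the floor and its brightest at 12.3 in 786-VHL and 10.8 in 786-O. With 1 array per line, error could be gauged only from how far several probe sets for the same gene differed. The pooled SD between them was 0.34 over 13 members with several probe sets above the floor, and 0.33 over 6436 genes, which covers probes and not cultures.

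The members divided evenly between the arrays, with 16 higher and 16 lower in 786-VHL, whereas 7555 of the 13291 measured genes were higher there. Among the 16 higher, CXCR4, ENPP2 and ANKRD37 cleared the floor only in 786-VHL, and among the 16 lower STC1 cleared it only in 786-O. The members' median difference was -0.03, beside 0.05 for all measured genes. Of the 32 members, 22 (68.8%) lay within 0.5 of 0, beside 82.7% of all measured genes. DDIT4 and NDRG1 were at least 2-fold higher in 786-VHL, 2 of 32 members (6.25%), beside 1.54% of all measured genes. None was at least 2-fold lower, beside 2.18%. At 1.5-fold, 4 members were higher, with AXL and BHLHE40 added, beside 6.25% of all measured genes, and 5 were lower, TMEM45A, INHBB, STC2, KDM4B and STC1, beside 6.55%. STC1 was under the floor in 786-VHL, and by its lower bound of 1.499-fold it did not reach 1.5-fold. Fewer RNA copies per cell and fewer cells carrying a transcript cannot be told apart in RNA of a whole culture.

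**Figure D1:**
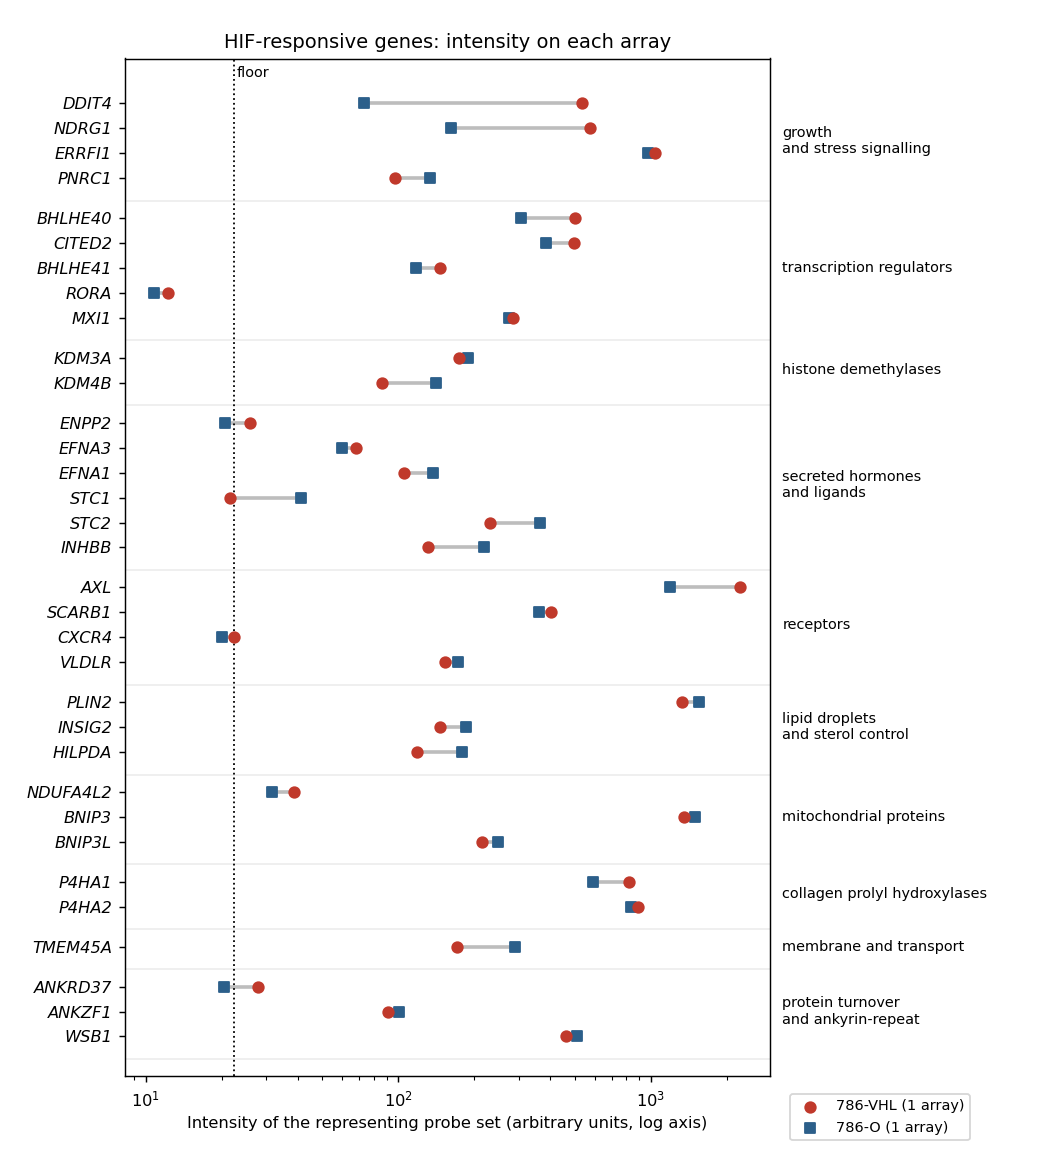
Intensity of the representing probe set (x axis, arbitrary units, log scale) of 33 HIF-responsive genes on the 786-VHL array (circles) and the 786-O array (squares), grouped by role, with the floor of 22.3 dotted. The wide gaps are those of DDIT4 and NDRG1, and in most other rows the 2 symbols lie close together.

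**Figure D2:**
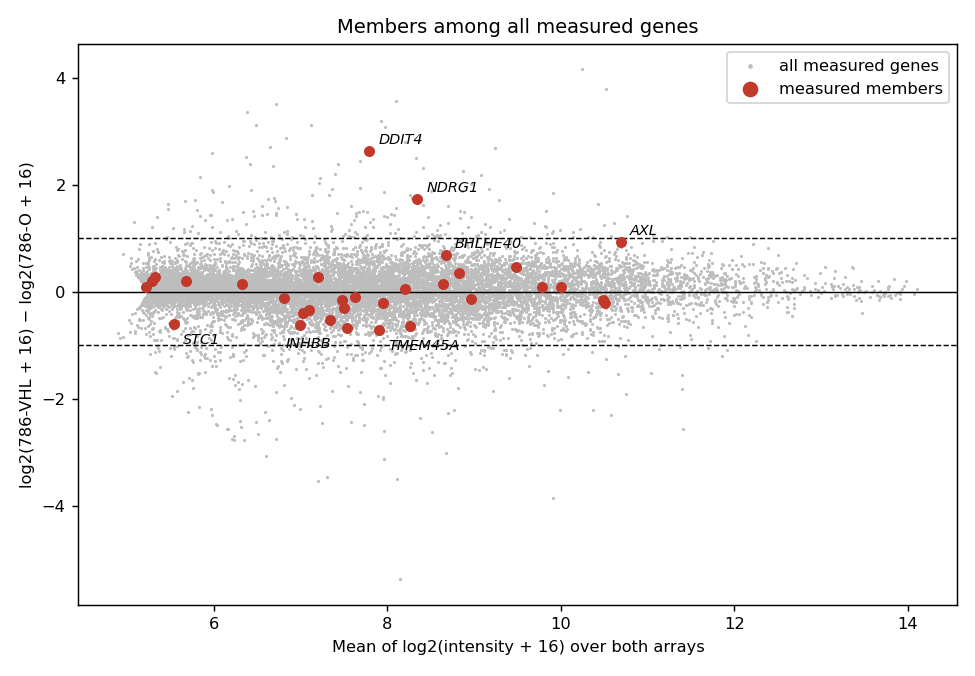
Difference between 786-VHL and 786-O (y axis, log2) against the mean log2 level over both arrays (x axis) for 13291 measured genes (grey) and 32 measured members (red), with dashed lines at 2-fold. DDIT4 at 2.63 and NDRG1 at 1.74 stand above the upper line, AXL at 0.92 just under it, and no member lies below the lower line.

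Among brakes on growth and stress signalling, the pair DDIT4 and NDRG1 stood far from the other members. DDIT4, also called REDD1, restrains the growth kinase mTORC1 under stress, and its intensity was 535 in 786-VHL, against 73.3 in 786-O. The higher value was that of the line with functional VHL, and the difference of 2.63, or 6.17-fold, was the 14th highest of all measured genes. NDRG1, a cytoplasmic protein induced by hypoxia and cell stress, had an intensity of 576 in 786-VHL, against 162 in 786-O. It too was higher in 786-VHL, by 1.74 or 3.33-fold, and ranked 46th. Genes were put into 5 groups of equal size by level to see how far others of like brightness were apart. In the group of DDIT4 the SD of differences was 0.48 and 3 of 2658 genes, DDIT4 included, were as high as it. In the group of NDRG1 the SD was 0.51 and 15 of 2658, NDRG1 included, were as high.

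Each of these 2 genes had a single probe set, 202887_s_at for DDIT4 and 200632_s_at for NDRG1, so no second probe set could be set beside it. The ending _s_at marks a probe set that can match several transcripts, and without such probe sets neither gene was measured. Over the 8 other settings that gave them a value, DDIT4 ranged from 2.13 to 2.85 and NDRG1 from 1.503 to 1.83. The 30 nearest measured genes on the chromosome had a median difference of 0.16 around DDIT4 and 0.12 around NDRG1. Less that median, the differences were 2.46 and 1.61.

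ERRFI1, a feedback inhibitor of the EGF receptor, had 1043 in 786-VHL and 979 in 786-O, a difference of 0.09, which turned to -0.28 less the median of 0.37 among its neighbours. PNRC1, a nuclear receptor coactivator, had 97.2 in 786-VHL and 133 in 786-O, a difference of -0.40. Neither followed DDIT4 and NDRG1, so the 4 genes of this role spanned -0.40 to 2.63.

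All 4 measured transcription regulators were higher in 786-VHL, none by 2-fold, beside 56.8% of all measured genes higher there. The differences of BHLHE41 and MXI1 were smaller than the SD of 0.33 between probe sets of all genes. BHLHE40, a repressor in the circadian clock also called DEC1, had 502 in 786-VHL and 305 in 786-O, a difference of 0.69. Its second probe set went the same way, with 141 in 786-VHL and 103 in 786-O, a difference of 0.40. Its paralog BHLHE41, or DEC2, had 147 in 786-VHL and 118 in 786-O, a difference of 0.28, and 0.11 on the other probe set above the floor. Both paralogs were thus higher in 786-VHL on every probe set above the floor. That other BHLHE41 probe set cleared the floor only in 786-VHL, with 24.4 against 21.3 in 786-O. The BHLHE41 probe sets below the floor were lower in 786-VHL, at -0.12 and -0.06. CITED2 competes with HIF alpha for the coactivators p300 and CBP, and gave 498 in 786-VHL and 385 in 786-O. Its 3 probe sets were all higher in 786-VHL, by 0.15 to 0.41. MXI1, an antagonist of MYC, had 285 in 786-VHL and 274 in 786-O, a difference of 0.05, and turned to -0.26 once the median of its neighbours was subtracted.

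The histone demethylases KDM3A and KDM4B remove methyl groups from histone tails and were lower in 786-VHL on their representing probe sets. KDM3A had 174 in 786-VHL and 188 in 786-O, a difference of -0.10. KDM4B had 86.6 in 786-VHL and 142 in 786-O, a difference of -0.62. For KDM4B the direction depended on the probe set. Of its 5 probe sets above the floor, 2 were lower in 786-VHL, at -0.62 and -0.55, and 3 were higher, at 0.09, 0.25 and 0.29.

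Among secreted hormones and ligands, 4 of 6 measured members were lower in 786-VHL, with a median of -0.47. That median is the midpoint between EFNA1 and STC1. STC1 and ENPP2 were each under the floor on 1 array. Over all measured genes 5553 of 13291 were lower, with a median of 0.05. STC2, a stanniocalcin hormone, had 230 in 786-VHL and 366 in 786-O, a difference of -0.63. Its second probe set had 202 in 786-VHL and 321 in 786-O, also a difference of -0.63. STC2 was therefore lower in 786-VHL by nearly the same amount on both. Its paralog STC1 was dim, with 21.6 in 786-VHL, under the floor, and 41.4 in 786-O. The bound given above holds for this probe set only. Its other probe sets differed by -0.31 and 0.06, so they did not settle a direction. INHBB, the beta B subunit of activin and inhibin, had 131 in 786-VHL and 219 in 786-O, a difference of -0.67 on its only probe set.

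EFNA1 and EFNA3 are neighbouring genes for ephrins, membrane-bound ligands of Eph receptors. EFNA1 had 106 in 786-VHL and 137 in 786-O, a difference of -0.33. EFNA3 had 68.1 in 786-VHL and 60.0 in 786-O, a difference of 0.15. EFNA1 was thus lower and EFNA3 higher in 786-VHL. Their neighbours had a median of 0.20, and less that median EFNA1 was at -0.53 and EFNA3 at -0.052, both lower in 786-VHL. ENPP2 encodes autotaxin, which makes lysophosphatidic acid, and gave 25.8 in 786-VHL and 20.6 in 786-O, the second value under the floor.

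Of the receptors, AXL was the furthest apart. AXL is a receptor tyrosine kinase for GAS6, and its probe set 202686_s_at had 2263 in 786-VHL and 1187 in 786-O, a difference of 0.92. Its other probe set, 202685_s_at, had 249 in 786-VHL and 329 in 786-O, a difference of -0.38. The 2 probe sets of AXL were thus 1.30 apart, the only member with a gap of more than 1, and their median was 0.27. SCARB1, the receptor for high-density lipoprotein, had 403 in 786-VHL and 361 in 786-O, and its probe sets differed by 0.15 and 0.10. VLDLR, which takes up triglyceride-rich lipoprotein, had 153 in 786-VHL and 172 in 786-O, a difference of -0.15, which turned to 0.11 less the median of its neighbours. CXCR4, the receptor for the chemokine CXCL12, lay at the floor, with 22.3 in 786-VHL and 20.0 in 786-O.

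**Figure D3:**
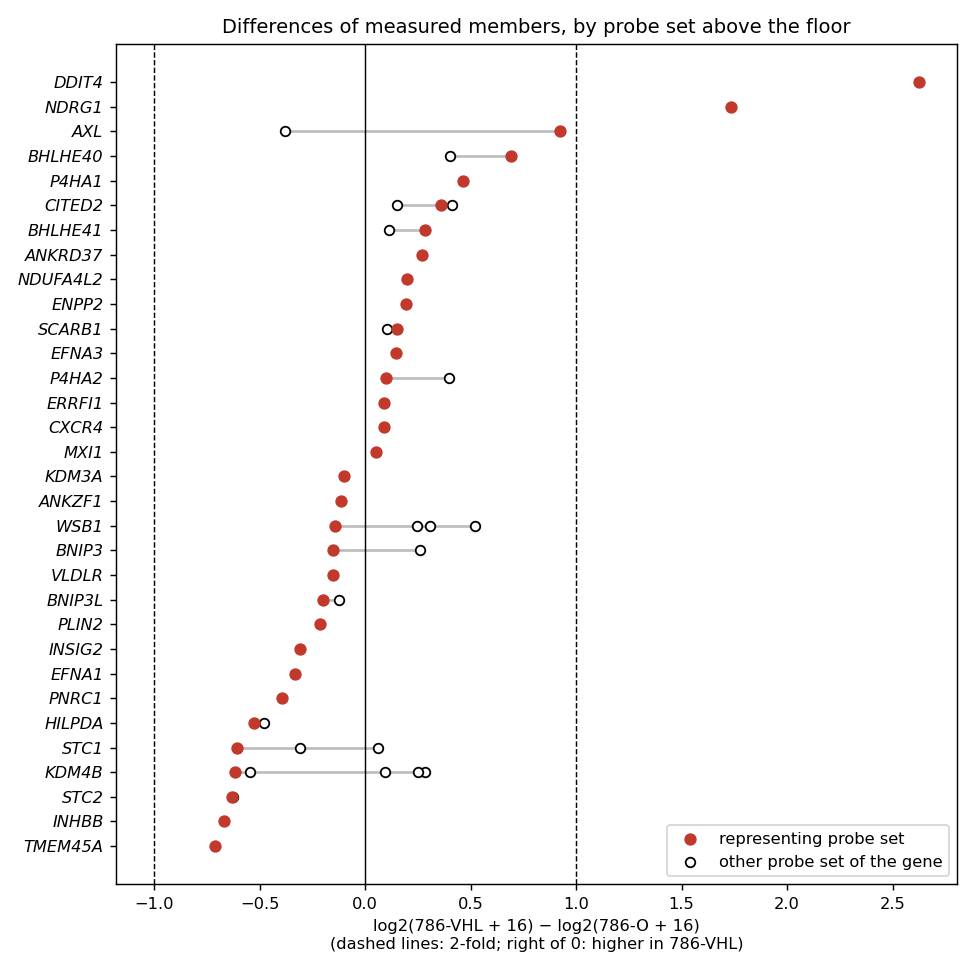
Differences (x axis, log2, positive where 786-VHL was higher) of the probe sets above the floor for 32 measured members, sorted by the representing probe set (filled), with other probe sets open and dashed lines at 2-fold. The probe sets of AXL, WSB1, BNIP3, STC1 and KDM4B lie on both sides of 0, and those of STC2 and HILPDA nearly coincide.

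The 3 genes of lipid droplets and sterol control were all lower in 786-VHL, none by 1.5-fold, beside 5553 of 13291 measured genes lower there. PLIN2, the coat protein of lipid droplets, had 1335 in 786-VHL and 1550 in 786-O, a difference of -0.21. HILPDA, which inhibits the lipase that empties droplets, had 119 in 786-VHL and 179 in 786-O, a difference of -0.53. Its second probe set went the same way, at -0.48. INSIG2, which holds the SREBP pathway of sterol synthesis in check, had 146 in 786-VHL and 185 in 786-O, a difference of -0.31. The median of the 3 genes was -0.31. The differences of PLIN2 and INSIG2 were smaller than the SD of 0.33 between probe sets of all genes.

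The mitochondrial members were close on both arrays. BNIP3, a receptor for mitophagy, the removal of mitochondria, had 1349 in 786-VHL and 1500 in 786-O, a difference of -0.15. Its second probe set had 907 in 786-VHL and 754 in 786-O, a difference of 0.26, so its direction was not settled. Its paralog BNIP3L had 215 in 786-VHL and 250 in 786-O, and differed by -0.20 and -0.12 on its 2 probe sets. NDUFA4L2, a relative of a respiratory chain subunit, had 38.7 in 786-VHL and 31.7 in 786-O, a difference of 0.20.

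The collagen prolyl hydroxylases P4HA1 and P4HA2, which stabilise the collagen helix, were both higher in 786-VHL by less than 1.5-fold. P4HA1 had 822 in 786-VHL and 591 in 786-O, a difference of 0.46, with a median of 0.26 among its 30 neighbours. P4HA2 had 891 in 786-VHL and 832 in 786-O, a difference of 0.10, and 0.40 on another probe set. TMEM45A, a transmembrane protein gene, was the lowest of all measured members, with 171 in 786-VHL and 291 in 786-O, a difference of -0.71 on its only probe set.

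The remaining members differed little on their representing probe sets. WSB1, a substrate-recognition protein of a ubiquitin ligase, had 460 in 786-VHL and 509 in 786-O, a difference of -0.14. Its other 3 probe sets above the floor were higher in 786-VHL, by 0.25 to 0.52, so the representing one stood alone. ANKZF1, which acts in the clearance of stalled ribosomes, had 91.4 in 786-VHL and 100.4 in 786-O, a difference of -0.12. ANKRD37, a small ankyrin-repeat protein gene, had 27.8 in 786-VHL and 20.4 in 786-O, the second value under the floor. In all, 5 of 13 members with several probe sets above the floor (38.5%) had probe sets on both sides of 0, beside 41.9% of 6436 genes.

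The HIF core was looked for in the members' promoters within the set of RefSeq promoters used here, 42 promoters of 28 members. Members not among these were NDRG1, STC1, ENPP2, BNIP3L, SCARB1, HILPDA and ANKZF1. Either core was found in 32 of 42 promoters (76.2%), beside 43.2% of 35116 promoters of all genes and 53.5% of 15507 promoters of measured genes. Promoters of the same gene can overlap, as those of NDUFA4L2, INSIG2 and KDM3A do, and a core they share was counted in each. ACGTG was found in 35.7% of the members' promoters, in 21.7% of those of measured genes and in 18.5% of all. GCGTG was found in 61.9% of the members', 42.1% of those of measured genes and 32.2% of all. The 42 include promoters of members not measured. In the 35 promoters of measured members the shares were 80% for either core, 40% for ACGTG and 65.7% for GCGTG. Both cores hold a CpG pair, and the median promoter had 24 such pairs among members, 19 among measured genes and 11 among all genes. The part of base composition in these shares was not tested.

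Members with and without a match lay on both sides of 0. Of 25 measured members with a promoter listed, 21 (84.0%) held either core in at least 1 promoter, beside 63.2% of 10676 measured genes. Of the 21, 11 were higher in 786-VHL, with a median of 0.05. Of the 4 without a match, ERRFI1, INHBB, P4HA2 and TMEM45A, 2 were higher, with a median of -0.29. The 13 members with ACGTG had a median of 0.27, the value of ANKRD37, which was under the floor in 786-O, and the 12 without it -0.13, whereas for GCGTG the median was -0.10 over 17 members with it and 0.09 over 8 without. Among all measured genes the medians were 0.047 with and 0.059 without either core, 0.045 with and 0.053 without ACGTG, and 0.047 with and 0.057 without GCGTG. BNIP3 with 6 matches and VLDLR with 5 each had a difference of -0.15, and DDIT4 with 3 had 2.63. A match is a run of letters and not a site shown to bind HIF.

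**Figure D4:**
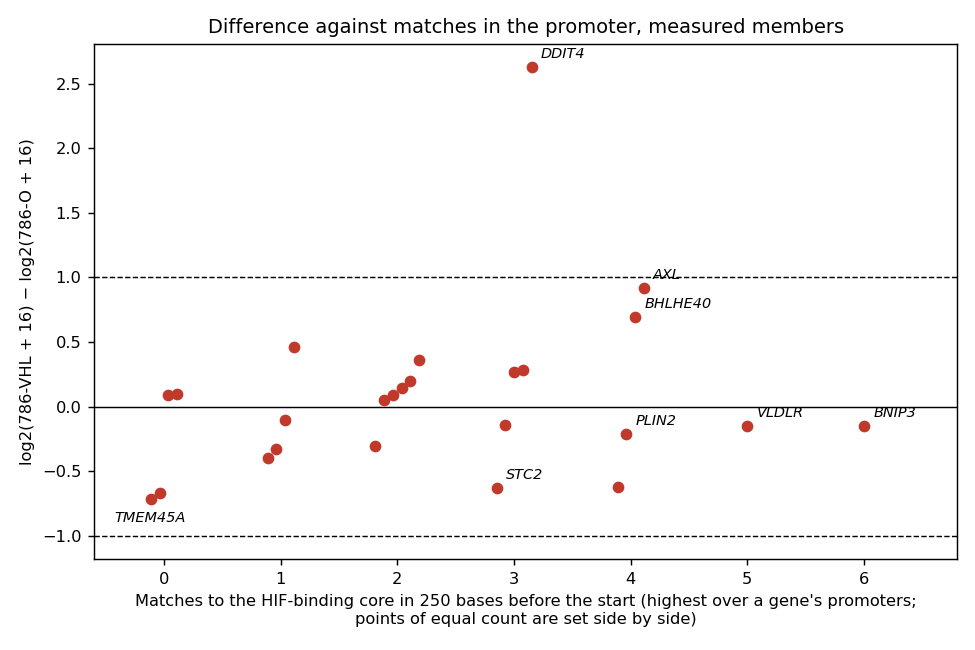
Difference between 786-VHL and 786-O (y axis, log2) of 25 measured members against the number of core matches in the 250 bases before the start (x axis, the highest count over the promoters of a gene). Of the members plotted, which do not include NDRG1, DDIT4 at 3 matches lies above 2-fold, and the members with 4 to 6 matches lie on both sides of 0.

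Other HIF-responsive genes, a list of 39 from glycolysis, angiogenesis and related roles, gave 33 measured. Of these 23 (69.7%) were higher and 10 lower in 786-VHL, with a median of 0.09. Of all measured genes 56.8% were higher, with a median of 0.05. At least 2-fold higher were CA12, HMOX1 and PFKFB4 and at least 2-fold lower EDN1, LOX, ADM and ENO2, 3 and 4 of 33, beside 1.54% higher and 2.18% lower of all measured genes. CA12, a carbonic anhydrase, had 719 in 786-VHL, against 64.3 in 786-O. EDN1, which encodes the vasoconstrictor endothelin, had 66.0 in 786-VHL, against 429 in 786-O. Whether that list differs from the members was not tested.

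Directions rest on the array labels. VHL itself read 15.96 in 786-VHL and 28.9 in 786-O on its brighter probe set, too near the floor to check them, and whether its probes match the introduced copy is not stated in the labels. EPAS1 had 799 in 786-VHL and 367 in 786-O, a difference of 1.09. Its other probe set above the floor had 69.0 in 786-VHL and 47.3 in 786-O, a difference of 0.42. HIF1A lay under the floor, at 5.69 in 786-VHL and 6.37 in 786-O. The kidney and renal carcinoma line markers PAX8, PAX2, KRT8, KRT18 and VIM were above the floor on both arrays. Of these 5, 2 were higher and 3 lower in 786-VHL. PAX8 had 1068 in 786-VHL and 1521 in 786-O, and was lower in 786-VHL on every probe set, at -0.29 to -1.08. Leukocyte markers summed to 338 in 786-VHL and 70.5 in 786-O over 4 genes, of which PTPRC, CD3E and CD14 were below the floor and LAPTM5 had 292 in 786-VHL and 25.9 in 786-O. Endothelial markers summed to 107 in 786-VHL and 89.1 in 786-O over 5 genes, and fibroblast and pericyte markers to 212 in 786-VHL and 201 in 786-O over 6. Its members went both ways, LUM with 37.1 in 786-VHL and 5.64 in 786-O and ACTA2 with 105 in 786-VHL and 136 in 786-O. Over both lists, CDH5, TIE1, COL1A2, DCN, PDGFRA and PDGFRB were below the floor. The part of other cell types in the differences was not tested.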

How the data were processed

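RNA was taken with Trizol and labelled with biotin, per the labels' protocols, and hybridised to 1 Affymetrix array per line. The values the authors deposited are linear intensities of 54613 probe sets. R 2.10 is the only tool in the submitters' processing notes. How background, normalization and probe summary were handled is not given in the sources used here, and any of them could compress differences between the arrays. Medians were 22.6 in 786-VHL and 22.0 in 786-O.

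A platform annotation gave 41091 probe sets a single gene. The 1801 with several genes and the 11721 unnamed here were not used. Current symbols came through Entrez numbers from RefSeq (GRCh38.p14, used for names, gene order and promoters). The representing probe set had the highest mean of log2(intensity + 16) over both arrays. With 1 array per line no p-value or standard error was possible, and precision is limited by there being 2 arrays. Sizes of 2-fold and 1.5-fold were used. Members described were those past 2-fold, those furthest apart in each role and the paralog pairs, and here every measured member is given. The members, lists and rules were chosen with earlier results of these data known. For a lower bound, a value under the floor was raised to it. Neighbours are the 30 nearest measured genes on a chromosome. The procedure was tested on simulated data. A marker gene of the kidney list is not reported here.

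Alternatives were quantile normalization, removal of the intensity trend, and the floor left out or raised to the 75th percentile. Others were a median over the probe sets of each gene above the floor and a set restricted to unsuffixed probe sets (no _s_at, _x_at or _a_at). The last were 1.5-fold, and 1 or 64 as pseudocount. Subtraction of the neighbours' median was added after the data were seen. Python 3.11.15, numpy 2.4.6, pandas 2.3.3, statsmodels 0.14.6 and matplotlib 3.10.9 were used.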

Additional observations from a re-analysis of the deposited data

How the results depend on the processing

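No paired analysis was possible because there was a single array of each line, and no replicate could be left out. DDIT4 and NDRG1 were at least 2-fold higher and no member was 2-fold lower in 8 of 10 alternatives. Without _s_at, _x_at and _a_at probe sets the count higher was 0 of 19 members, since neither gene has another probe set, and with the 1.5-fold threshold 4 were higher and 5 lower. The members' median, -0.03 in the reported setting, was 0.051 without a floor, 0.090 over the median of probe sets, -0.14 with the floor at the 75th percentile, -0.15 without the suffixed probe sets and -0.11 less the neighbours' median, a setting chosen after seeing the data, so its sign depends on the setting. The causes were otherwise not tested. Over all measured genes a pseudocount of 1 gave 292 at least 2-fold higher and 394 lower and one of 64 gave 110 and 146, beside 205 and 290 in the reported setting, and the 1.5-fold threshold gave 831 and 871. Of 267 alternative values of single members, 261 moved by less than the SD between probe sets and 6 by more, and 8 values of 7 genes changed sign: KDM4B, BNIP3 and WSB1 with the choice of probe sets, and ERRFI1, MXI1, EFNA3 and VLDLR less the neighbours' median. Many of the 261 could not move. Leaving out or raising the floor changes which genes count and not their values. A member with 1 probe set above the floor keeps its value under the median over probe sets. Signal near the floor limits CXCR4, STC1, ENPP2 and ANKRD37, each with 1 array under it.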
